A study of Homo sapiens with 18 samples.

Results

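The change between an early and a late recovery time in the response of A549 cells to AS30 silica nanoparticles (NPs) was measured on 12 of the 18 one-colour arrays of the series. A549 is an established human alveolar epithelial cell line, and AS30 is a Ludox colloidal silica with a labelled particle size of 18 nm. Cells were exposed for 2 h to 0.02 mg/mL AS30 in 150 µL of serum-free medium and then left to recover in complete medium (10% serum) for 3 h or 22 h. Control cells went through the same steps without NPs at each recovery time. There were 4 groups of 3 biological replicates, namely AS30 and control at 3 h and AS30 and control at 22 h, with replicates A, B and C in each. For every probe the response at a recovery time is the mean log2 signal of treated cells minus that of their own controls, and the difference is the response at 22 h minus the response at 3 h. The question was which genes had a response that faded by 22 h and which had one that was only present late. All 12 arrays belong to this comparison, and the 3 h and 22 h responses share no array.

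Silica NPs that reach an epithelial cell are taken up by endocytosis and carried to lysosomes, and a short exposure followed by recovery in fresh medium separates immediate signalling from later adjustment. Early programmes in such a setting include the immediate early transcription factors and the phosphatases that shut MAP kinase signalling down, whereas enzymes of lipid synthesis and lysosomal hydrolases are controlled by slower sensors of membrane cholesterol and lysosomal state. A positive difference can arise from a fall that faded, from a late rise, or from a control level that moved, so the signals of all 4 groups are given for each gene.

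Of 41000 probes, 26555 were tested, standing for 13295 genes with a symbol. The share of spots well above background ranged from 51.9% to 67.1% over the 12 arrays, and the number of arrays sets the precision. At 3 h it was 62.5% to 67.1% in treated cells and 52.4% to 61.9% in controls, and at 22 h 56.9% to 67% and 51.9% to 58.4%. Replicate C of the 3 h controls and replicate B of the AS30 cells at 22 h had the lowest share of their groups. The epithelial identity of the cells was visible in every group, since 8 of 10 epithelial markers were well above background on all 12 arrays. Of 8 endothelial markers 0 were, and of 8 fibroblast and 10 leukocyte markers 1 and 3 were. In bulk RNA, fewer cells of a kind and less RNA per cell cannot be told apart. The AS30 arrays at 3 h correlated pairwise at r = 0.987 to 0.993, and 3 arrays, 1 in each of the other groups, correlated below that range with both partners. Replicate C of the 3 h controls correlated at r = 0.966 and 0.970 with its 2 partners, and replicate B of the AS30 cells at 22 h at r = 0.982 and 0.986, where the other 2 arrays of that group correlated at 0.992. Replicate A of the 22 h controls correlated at r = 0.980 and 0.984 with its partners, which correlated at 0.988. The arrays lay on 3 slides. The first held the 3 h controls, the second the AS30 cells at 3 h and the third the AS30 cells at 22 h, and each slide held 1 of the 3 controls of 22 h, so that slide and treatment at 3 h can be told apart only through those single arrays.

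The difference passed the test of limma with Benjamini-Hochberg adjustment at 0.05 for 22 probes, which is 0.0828% of those tested. Of these, 16 had a higher response at 22 h than at 3 h (0.0603%) and 6 a lower one (0.0226%). The spread was estimated from all 18 arrays of the series. In a fit of the 12 arrays alone 0 probes passed, with 3153 at an unadjusted p under 0.05, and 0 passed with slide as a random block (3400) or with the replicate letter as a block across recovery times (3696). With arrays scaled to their 75th percentile in place of quantile normalization 21 probes passed, 19 higher and 2 lower, and with the deposited expression values 29 did, 15 higher and 14 lower. At an unadjusted p under 0.05 there were 4064 probes (15.3%), 1864 higher (7.02%) and 2200 lower (8.28%). Each response taken alone gave more calls, 1249 probes at 3 h (4.7%, with 2.49% higher and 2.21% lower) and 1356 at 22 h (5.11%, with 3.54% higher and 1.57% lower). The number of calls for the difference was set by single arrays. Without replicate C of the 3 h controls it was 1564 of 26402 probes (5.92%, with 2.12% higher and 3.8% lower), and without replicate B of the AS30 cells at 22 h it was 426 of 26491 (1.61%, with 1.11% higher and 0.495% lower). Both of these sets held all 22 probes. Of the 12 fits that left out 1 array, these 2 gave the most calls for the difference. Genes said below to pass in them gain no separate support from it. The number was 0 without replicate A or C of the AS30 cells at 22 h, with 3198 and 3114 probes at an unadjusted p under 0.05, and 0 without replicate B of the 22 h controls, with 2908. It was 3 without replicate A of the 3 h controls, 2 without replicate A of the 22 h controls, 1 without replicate B and 9 without replicate C of the AS30 cells at 3 h, and 50 without replicate C of the 22 h controls. With slide as a fixed block, which leaves 1 control array per slide to carry the comparison, 3 probes passed, of which 0 were among the 22.

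Most responses kept their sign and were smaller at the other time. The 661 probes that rose at 3 h had a median response of 0.88 there and 0.34 at 22 h, and 82.3% still lay above 0, while 121 rose again by the test and 2 fell. The 588 probes that fell at 3 h had a median of -0.77 there and -0.23 at 22 h, with 79.4% still below 0. Since these probes were chosen by their 3 h values, some of that shrinkage is built in, and the opposite choice gave a like picture. The 939 probes that rose at 22 h had a median of 0.82 there and 0.28 at 3 h, and the 417 that fell had -0.80 and -0.24. With slide as a fixed block the median at 22 h of the probes that rose at 3 h was -0.19. Patterns were then assigned as a description to probes with an unadjusted p under 0.05 and a response of at least 1 log2 unit at one time. A pattern is called faded where the 3 h response was at least 2 times the 22 h response in size, late where the 22 h response was at least 2 times the 3 h response, and turned where the signs were opposite and neither held. Among genes, 80 had a faded rise (0.602%), 68 a faded fall (0.511%), 130 a late rise (0.978%) and 43 a late fall (0.323%).

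**Figure D1:**
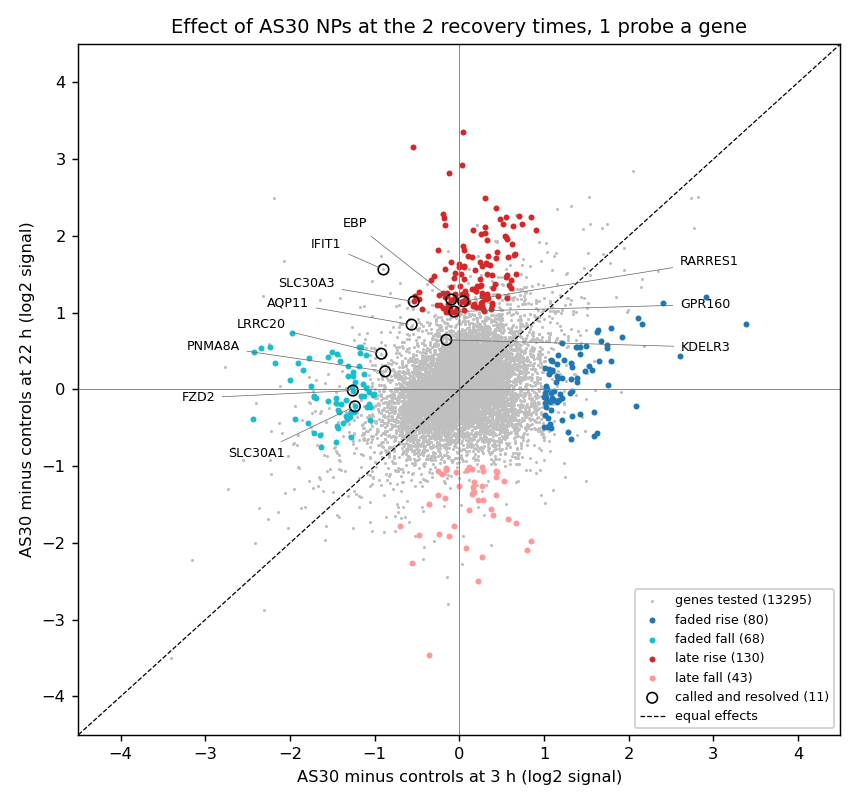
Response to AS30 NPs at 3 h (horizontal axis) and at 22 h (vertical axis) in log2 signal, 1 point per gene for 13295 genes, with 4 patterns in colour and the 11 genes that passed the test of the difference and were well above background in every group circled. Circled genes all lie above the dashed line of equal responses. The place of the 130 late rises follows from their definition, a 22 h response at least 2 times the 3 h response in size.

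In most of these genes the treated signal moved between the recovery times by more than the control signal. The AS30 arrays of 3 h lay on the second slide and those of 22 h on the third. Recovery time and slide therefore cannot be told apart in the move of the treated signal. It moved more than that of the controls in 69 of 80 faded rises (86.2%), with a median move of -1.07 in treated cells and 0.19 in controls. The same held for 101 of 130 late rises (77.7%, medians 0.97 and -0.16) and for 44 of 68 faded falls (64.7%, medians 0.88 and -0.46). Late falls were split evenly, with 22 of 43 (51.2%). There the treated cells moved by a median of -0.83 and the controls by 0.61.

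Among the 22 probes, 11 were of genes with a symbol that were measured on all 12 arrays and well above background in every group, and all 11 had a higher response at 22 h. Their adjusted p ranged from 0.046 to 0.048. Of the 22 probes, 0 stayed called in 8 of the 29 alternatives. These were the fit of the 12 arrays alone, the replicate block across recovery times, slide as a fixed or a random block, and the fits without replicate A of the 3 h controls, replicate B of the 22 h controls or replicate A or C of the AS30 cells at 22 h. With normexp background correction 3 stayed called. The 11 genes missed the threshold in 10 (FZD2) to 19 (EBP and GPR160) of the alternatives, although all 22 probes kept their direction wherever they were measured. The 11 genes fell into 3 kinds. FZD2, SLC30A1, LRRC20 and PNMA8A were low in treated cells at 3 h and near or above the controls at 22 h. EBP, GPR160, RARRES1 and KDELR3 lay between 0.15 below and 0.05 above the controls at 3 h in log2 units and rose at 22 h. IFIT1, AQP11 and SLC30A3 lay below the controls at 3 h and above them at 22 h.

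**Figure D2:**
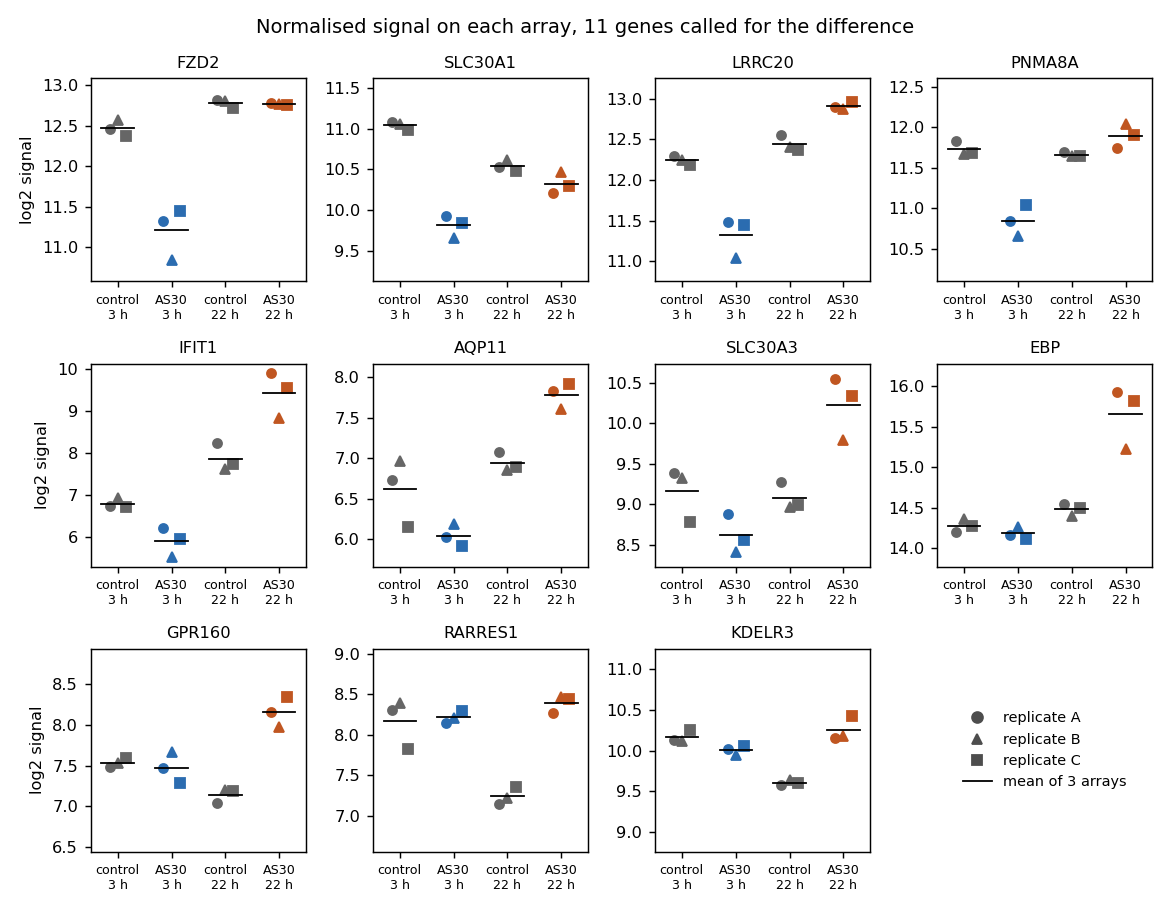
Normalised log2 signal on each of the 12 arrays for the 11 genes, with 1 panel per gene, 1 symbol per replicate and a bar at the mean of 3 arrays. FZD2 treated cells sit between 10.85 and 11.45 at 3 h, below every other array, while EBP treated cells sit between 15.22 and 15.93 at 22 h, above every other array.

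FZD2 encodes Frizzled-2, a receptor for Wnt ligands, and its probe lies at chr17:39992136-39992195 (hg18). At 3 h its signal was 11.33, 10.85 and 11.45 in treated cells and 12.46, 12.57 and 12.37 in controls. At 22 h it was 12.78, 12.76 and 12.75 in treated cells and 12.81, 12.80 and 12.72 in controls. The groups did not overlap at 3 h and coincided at 22 h. FZD2 thus fell at 3 h by 1.26 log2 units (adjusted p = 0.00051) and differed by -0.02 at 22 h (0.96), and the difference was 1.24 ± 0.18 (SE, n = 3 per group). It was 1.29 without replicate C of the 3 h controls and 1.29 ± 0.40 with slide as a block.

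SLC30A1, the plasma membrane zinc exporter whose transcription rises with zinc, behaved in the same way (probe at chr1:209812068-209812127). Its signal at 3 h was 9.93, 9.66 and 9.84 in treated cells and 11.08, 11.06 and 10.99 in controls. At 22 h it was 10.21, 10.47 and 10.29 in treated cells and 10.53, 10.62 and 10.48 in controls. The treated arrays lay below all controls at both times, with a gap about 1 log2 unit smaller at 22 h. SLC30A1 fell at 3 h by 1.23 (adjusted p = 0.00029), the response at 22 h was -0.22 (0.25), and the difference was 1.01 ± 0.15. The controls themselves were 0.50 lower at 22 h than at 3 h, and a second probe of the gene gave a difference of 1.13. Among the 11 genes, LRRC20, a leucine-rich repeat protein, fell at 3 h by 0.92 (adjusted p = 0.0034) and stood at 0.46 at 22 h (0.073), a difference of 1.39 ± 0.20, although a second LRRC20 probe gave 0.2. PNMA8A, of the paraneoplastic antigen family, fell at 3 h by 0.88 (0.0024) and was at 0.23 at 22 h (0.3), a difference of 1.11 ± 0.18, and its other probes gave 0.04 and 0.95.

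EBP, the sterol isomerase of the late cholesterol pathway (probe at chrX:48271886-48271945), gave 14.17, 14.26 and 14.12 in treated cells and 14.20, 14.36 and 14.27 in controls at 3 h. At 22 h the signal was 15.93, 15.22 and 15.81 in treated cells and 14.55, 14.40 and 14.50 in controls. Treated and control arrays overlapped at 3 h and were apart at 22 h, with replicate B the lowest of the treated arrays. EBP rose at 22 h by 1.17 (adjusted p = 0.0024) against -0.09 at 3 h (0.75), a difference of 1.27 ± 0.22. The rise on the slide that held the treated 22 h arrays and 1 control was 1.16. GPR160, an orphan G protein-coupled receptor, rose at 22 h by 1.01 (0.0023) and was at -0.06 at 3 h, a difference of 1.08 ± 0.18.

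In RARRES1 and KDELR3 the level of the controls moved and that of treated cells did so less. RARRES1, a retinoic acid responsive membrane protein, gave 8.15, 8.21 and 8.29 in treated cells at 3 h and 8.27, 8.47 and 8.44 at 22 h. Controls gave 8.30, 8.39 and 7.82 at 3 h and 7.15, 7.22 and 7.36 at 22 h. The treated cells stayed at one level while the controls were 0.93 lower at 22 h. The difference was 1.1 ± 0.18, from 0.05 at 3 h to 1.15 at 22 h (adjusted p = 0.0013 at 22 h). KDELR3, a receptor that returns proteins to the endoplasmic reticulum, had controls 0.56 lower at 22 h than at 3 h and treated cells 0.24 higher, and its difference was 0.80 ± 0.13 (22 h response 0.65, adjusted p = 0.0031).

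IFIT1, an interferon-stimulated gene whose product binds foreign RNA (probe at chr10:91153418-91153477), had the greatest difference of the 11. At 3 h the signal was 6.22, 5.52 and 5.96 in treated cells and 6.73, 6.94 and 6.72 in controls. At 22 h it was 9.91, 8.84 and 9.55 in treated cells and 8.25, 7.61 and 7.75 in controls. Treated arrays were below all controls at 3 h and above all controls at 22 h. The response was -0.90 at 3 h (adjusted p = 0.067) and 1.56 at 22 h (0.0069), and the difference was 2.46 ± 0.38. In the controls too IFIT1 was higher at 22 h, by 1.07. With slide as a block the difference was 1.93 ± 0.68, and the 22 h response on the slide of the treated arrays was 1.68. SLC30A3, a zinc transporter of intracellular vesicles, stood at -0.54 at 3 h (0.13) and rose by 1.15 at 22 h (0.0087), a difference of 1.69 ± 0.29. AQP11, an intracellular water channel, stood at -0.56 (0.063) and rose by 0.84 (0.012), a difference of 1.41 ± 0.23.

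The other 11 probes that passed were dim in at least 1 group or had no symbol. TRAM1L1, SLC25A40 and ALDOC were higher, as were 2 probes without a symbol, and a second KLF6 probe, RABL6 and PPP1R1A were lower, as were 3 without a symbol. ALDOC, the aldolase C gene of glycolysis, was not well above background on any of the 3 h control arrays, so that no size is given. No gene that was well above background in every group passed with a lower response at 22 h. The 8 such genes with the smallest p had adjusted p from 0.051 to 0.059. All 8 passed without replicate C of the 3 h controls, at 0.014 to 0.021, where 3.8% of probes passed as lower. They also passed without replicate B of the AS30 cells at 22 h, at 0.007 to 0.035, where 0.495% did. Since the 8 were chosen for a small p on arrays that these fits share, the passes are no separate support. The 8 missed the threshold in 18 to 23 of the alternatives run for each, at an adjusted p of up to 1. They were CREM, CCDC186, HGF, FANCD2, C3orf52, SFTPA1, ARRDC3 and IL6R.

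CREM, a transcription factor of cyclic AMP signalling whose early repressor forms end that signal, gave 10.04, 10.55 and 10.1 in treated cells and 8.68, 9.02 and 8.54 in controls at 3 h. At 22 h the signal was 9.09, 8.59 and 9.00 in treated cells and 8.74, 8.69 and 8.64 in controls. The groups were apart at 3 h and overlapped at 22 h. CREM rose at 3 h by 1.48 (adjusted p = 0.00051) and stood at 0.20 at 22 h (0.49), a difference of -1.28 ± 0.22 (0.051). IL6R, the receptor subunit for interleukin-6, rose at 3 h by 1.57 (0.00058) and stood at 0.25 at 22 h (0.44), with a difference of -1.32 ± 0.25 (0.059).

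FANCD2, a Fanconi anaemia protein of DNA crosslink repair, was of the late kind. Its signal was 11.41, 11.48 and 11.46 in treated cells and 11.41, 11.55 and 11.39 in controls at 3 h, and 10.63, 10.80 and 10.67 against 11.66, 11.78 and 11.50 at 22 h. The groups overlapped at 3 h and were apart at 22 h. FANCD2 fell at 22 h by 0.94 (adjusted p = 0.0023), and the difference was -0.94 ± 0.17 (0.051). SFTPA1, surfactant protein A, fell at 22 h by 0.87 (0.0061) against 0.22 at 3 h (0.37), with a difference of -1.09 ± 0.21 (0.059).

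Cholesterol synthesis was the gene list with the highest median difference of those examined. The list holds 21 enzymes from acetyl-CoA to cholesterol, and 0 of them passed the test at 3 h while 19 rose at 22 h, GGPS1 and PMVK being the exceptions. Over all genes 4.43% rose at 22 h. The median response was 0.12 at 3 h and 1.45 at 22 h. The median difference was 1.39, beside 0.05 over all genes, and 18 of 21 were higher at an unadjusted p under 0.05, beside 8.5% of all genes. For the difference itself EBP alone passed adjustment over all probes, as did 0.105% of all genes. Without replicate C of the 3 h controls the median difference was 1.27 and 10 enzymes passed (2.51% of all genes as higher), and without replicate B of the AS30 cells at 22 h it was 1.83 and 17 passed (1.42% of all genes as higher). With single arrays left out in turn the median ran from 1.13, without replicate A of the AS30 cells at 22 h, to 1.83.

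Along the pathway the rise at 22 h was found from the first steps to the last. Among the early enzymes, ACAT2, which joins acetyl-CoA units, rose by 1.74 and HMGCS1, which makes HMG-CoA, by 1.64. In the mevalonate and isoprenoid steps MVK rose by 1.22, MVD by 2.49, IDI1 by 2.03 and FDPS by 1.72. Of those that make and cyclise squalene, FDFT1 rose by 1.44, SQLE by 0.95 and LSS by 1.57. In the sterol steps CYP51A1 rose by 1.35, TM7SF2 by 2.29, MSMO1 by 2.15, NSDHL by 0.87, HSD17B7 by 1.79, SC5D by 1.62 and DHCR7 by 1.45.

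MVD, the decarboxylase that makes isopentenyl diphosphate, shows how the arrays varied. Its signal at 3 h was 9.71, 9.60 and 9.48 in treated cells and 9.39, 9.04 and 9.46 in controls. At 22 h it was 12.97, 10.95 and 12.30 in treated cells and 9.53, 9.62 and 9.59 in controls. All treated arrays were above all controls at both times, by a far wider gap at 22 h, and replicate B was the lowest at 22 h. The difference of MVD was 2.20 ± 0.47 (adjusted p = 0.075), 2.11 without replicate C of the 3 h controls (0.031) and 2.76 without replicate B of the AS30 cells at 22 h (0.00015). TM7SF2, a sterol reductase, gave 11.24, 10.97 and 11.05 in treated cells and 11.52, 11.38 and 10.93 in controls at 3 h, and 14.43, 12.65 and 14.10 against 11.76, 11.25 and 11.30 at 22 h. Its difference was 2.48 ± 0.47 (0.059), 2.65 without that control array (0.015) and 3.02 without the treated array (0.00015). Of the 29 alternatives, the difference missed the threshold in 26 for MVD and in 23 for TM7SF2. The list median on single treated arrays was 1.94, 0.71 and 1.78 at 22 h for A, B and C, and 0.03, 0.30 and 0.07 at 3 h. Replicate B was thus the lowest at 22 h and the highest at 3 h.

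**Figure D3:**
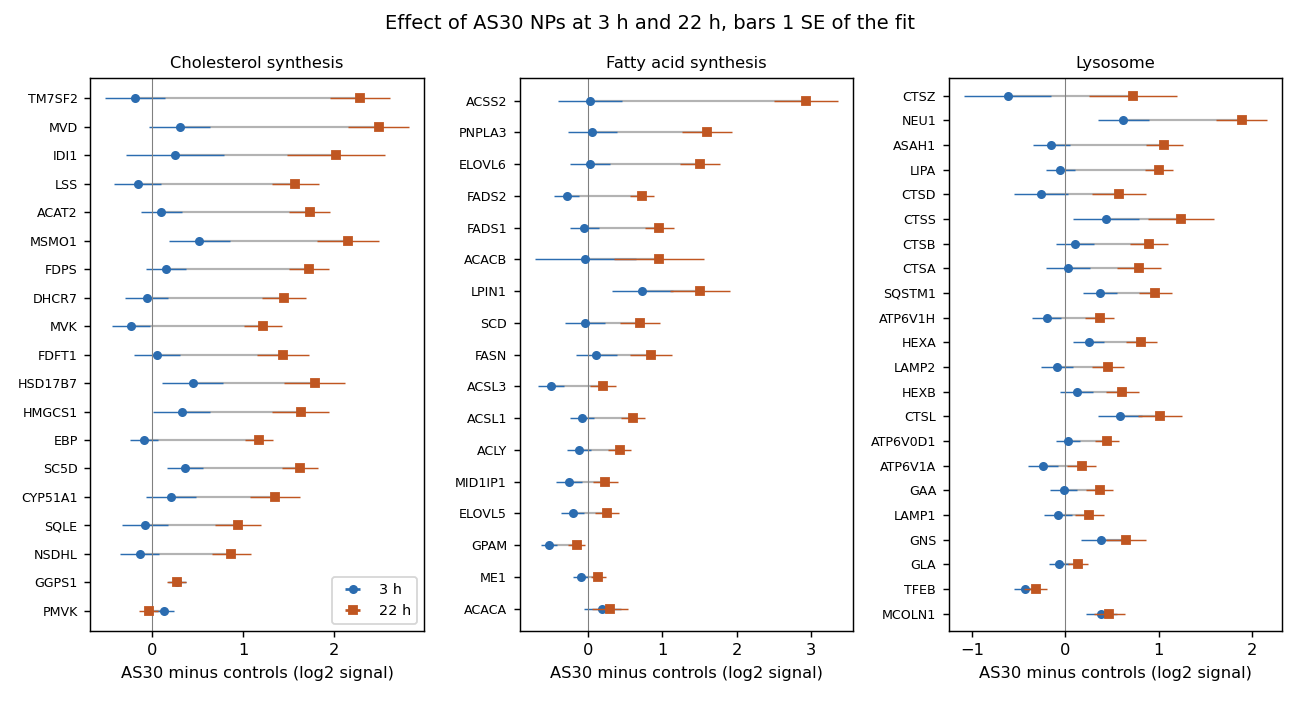
Response at 3 h (blue circles) and at 22 h (orange squares) of tested genes of cholesterol synthesis, fatty acid synthesis and the lysosome, in log2 signal of AS30 cells minus controls, with bars of 1 SE of the fit. The cholesterol enzymes lie near 0 at 3 h and, apart from GGPS1 and PMVK, between 0.87 and 2.49 at 22 h, while the lysosomal genes are displaced by less, all in one direction.

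The differences were smaller for the genes of fatty acid synthesis. All 17 tested had a difference above 0, beside 7452 of 13295 over all genes. The median was 0.74, and 9 of 17 were higher at an unadjusted p under 0.05, beside 8.5% of all genes. None passed adjustment for the difference, but 7 rose at 22 h, beside 4.43% of all genes. ACSS2, which makes acetyl-CoA from acetate, gave 9.27, 9.24 and 9.58 in treated cells and 9.34, 9.20 and 9.45 in controls at 3 h. At 22 h the signal was 13.34, 10.80 and 12.93 in treated cells and 9.34, 9.35 and 9.60 in controls. It overlapped the controls at 3 h and was apart from them at 22 h. ACSS2 rose at 22 h by 2.93 (adjusted p = 0.0032), with a difference of 2.89 ± 0.61 (0.073), though a second probe gave 1.52. The difference was 2.83 without replicate C of the 3 h controls (0.029) and missed the threshold in 25 of the 29 alternatives. The elongase ELOVL6 rose at 22 h by 1.50, the lipid droplet protein PNPLA3 by 1.60, and the desaturases FADS1 and FADS2 by 0.96 and 0.72. The median of the list was 0.63 without the control array and 0.90 without replicate B of the AS30 cells at 22 h.

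Regulators of sterol balance had no common direction, with a median difference of 0.08 over 19 genes. At an unadjusted p under 0.05, 6 were higher and 1 lower, beside 8.5% and 7.09% of all genes. INSIG1, which holds the sterol sensor in the endoplasmic reticulum, rose at 22 h by 2.13 (adjusted p = 0.0033, difference 1.50 ± 0.45), and STARD4, a cholesterol carrier, rose by 1.24 (0.019). The cholesterol exporter ABCG1 rose at 3 h by 1.24 (0.043) and stood at -0.96 at 22 h (0.098). Its difference was -2.20 ± 0.46 (0.073), and -1.90 without replicate C of the 3 h controls (0.027). ABCG1 was dim, with signals of 5.02, 4.49 and 4.66 in treated cells at 22 h. Its difference was as small as -0.41 and missed the threshold in 24 of the 28 alternatives that measured it.

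Lysosomal genes also had higher responses late. All 22 tested had a difference above 0, beside 7452 of 13295 over all genes. The median was 0.55, and 10 of 22 were higher at an unadjusted p under 0.05, beside 8.5% of all genes. The number that rose was 0 at 3 h and 7 at 22 h, where 2.77% and 4.43% of all genes rose, while 0 passed for the difference. NEU1, a sialidase, gave 11.76, 11.76 and 11.46 in treated cells and 10.99, 10.86 and 11.27 in controls at 3 h, and 13.40, 11.99 and 13.34 against 10.88, 10.99 and 11.20 at 22 h. Treated arrays were above controls at both times, by more at 22 h. It rose at 22 h by 1.89 (adjusted p = 0.0031), with a response of 0.62 at 3 h (0.19) and a difference of 1.27 ± 0.39 (0.17). LIPA, the lysosomal acid lipase that releases cholesterol from its esters, rose at 22 h by 1.00 (0.0037) and had a difference of 1.06 ± 0.22 (0.073). ASAH1, acid ceramidase, rose at 22 h by 1.06 (0.011), and the others were CTSB, CTSL, HEXA and SQSTM1, by 0.81 to 1.01. The list median was 0.55 without replicate C of the 3 h controls, where 3 genes passed as higher (2.51% of all genes). It was 0.74 without replicate B of the AS30 cells at 22 h, where 3 passed as higher (1.42%).

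**Figure D4:**
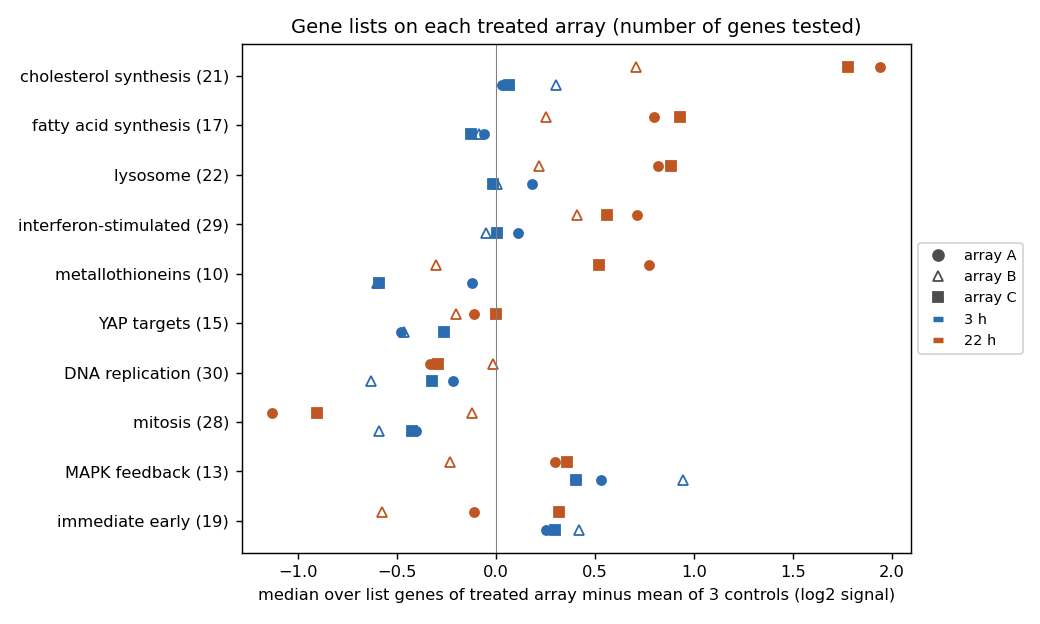
Median over the tested genes of 10 lists of the log2 signal of each treated array minus the mean of its 3 controls, at 3 h in blue and at 22 h in orange. At 22 h array B (open triangles) lies nearer 0 than arrays A and C in the cholesterol, fatty acid, lysosome and mitosis lists, at 0.71 against 1.94 and 1.78 for cholesterol.

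The 29 tested interferon-stimulated genes had a median difference of 0.69. At an unadjusted p under 0.05, 14 were higher and 1 lower, beside 8.5% and 7.09% of all genes. IFIT1 passed for the difference, as did 0.105% of all genes. At 3 h 2 rose and 3 fell, where 2.77% and 2.7% of all genes did so. At 22 h 9 rose and 0 fell, where 4.43% and 1.41% of all genes did so. OASL and IFIT3 were among the 9, but they were not well above background on any 22 h control array and no size is given. IFIT2, a further member of the IFIT1 family, had responses of 0.55 at 3 h and 1.98 at 22 h. STAT2, a transcription factor through which interferon acts, had a difference of 0.72. ISG20, an exonuclease of the same family of targets, went the other way. Its signal was 13.97, 14.91 and 14.29 in treated cells and 12.36, 12.43 and 13.46 in controls at 3 h, and 13.27, 12.92 and 13.30 against 12.04, 12.34 and 12.81 at 22 h. Treated arrays were above controls at both times and by more at 3 h. ISG20 rose at 3 h by 1.64 (0.0065) and stood at 0.77 at 22 h (0.13), with a difference of -0.87 ± 0.40 (0.32) that was -1.22 without replicate C of the 3 h controls (0.047). Without that array the median of the list was 0.77, and 0.69 without replicate B of the AS30 cells at 22 h. It was 0.42 without replicate A of the 3 h controls and 0.24 with normexp background correction. Of the 29 genes, 19 were measured on all 12 arrays and well above background in every group.

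The promoters of these genes were searched on both strands for the interferon-stimulated response element, written as GAAA, any 2 bases and GAAA again, in windows from RefSeq (GRCh38.p14) that run from 250 bases before to 50 bases after each start site. It was present in 16 of the 24 listed genes with a window (66.7%), beside 3.79% of the 10627 tested genes with a window and 3.57% of all 35116 windows, a gene having 1 window or more. IFIT1 and ISG20, whose responses ran in opposite directions in time, both had it. The 250 bases before each start site are shown 5′ to 3′ on the strand of the gene, with the element or its reverse complement in capitals, because the letters alone do not separate the pair. IFIT1 has 2 copies that do not overlap and begin 116 and 103 bases before the start, in chr10:89392373-89392622, and ISG20 has 1 that begins 69 bases before it, in chr15:88638766-88639015.
IFIT1: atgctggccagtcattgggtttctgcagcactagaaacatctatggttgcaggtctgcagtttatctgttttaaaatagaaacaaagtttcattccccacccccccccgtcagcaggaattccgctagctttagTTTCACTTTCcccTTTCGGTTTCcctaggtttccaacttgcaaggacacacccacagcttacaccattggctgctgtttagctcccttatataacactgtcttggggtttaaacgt
ISG20: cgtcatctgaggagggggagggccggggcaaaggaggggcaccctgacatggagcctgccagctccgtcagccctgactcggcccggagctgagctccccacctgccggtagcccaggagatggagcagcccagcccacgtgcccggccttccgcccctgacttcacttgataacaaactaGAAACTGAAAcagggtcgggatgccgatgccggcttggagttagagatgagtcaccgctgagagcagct

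A sterol element, written TCACNCCAC, was found in 0 of the 16 cholesterol genes with a window, beside 1.48% of all tested genes with one and 1.13% of all windows. These letters are therefore not in those windows, and nothing follows for the factor that binds them.

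Zinc-binding metallothioneins had a negative median response at 3 h and, on 2 of the 3 treated arrays, a positive one at 22 h. The list median was -0.12, -0.60 and -0.59 on treated arrays A, B and C at 3 h, and 0.77, -0.31 and 0.52 at 22 h. With the zinc exporter SLC30A1 on the list, MT1F and SLC30A1 fell at 3 h, where 2.7% of all genes fell, and 0 passed at 22 h. In all 10 genes were tested, with a median response of -0.43 at 3 h and 0.32 at 22 h and a median difference of 0.86. Of these, 7 were higher and 1, MT3, was lower at an unadjusted p under 0.05, beside 8.5% and 7.09% of all genes. Metallothioneins are near-identical in sequence, so the probes may share signal. MT1F gave 7.90, 7.53 and 7.47 in treated cells and 8.26, 8.53 and 8.70 in controls at 3 h, and 8.76, 8.16 and 8.48 against 8.02, 8.68 and 7.88 at 22 h. The groups were apart at 3 h and overlapped at 22 h. MT1F fell at 3 h by 0.86 (adjusted p = 0.03) and its difference was 1.14 ± 0.29 (0.11). Over the list the median was 1.02 without replicate C of the 3 h controls. It was 1.13 without replicate B of the AS30 cells at 22 h, where 5 genes passed as higher (1.42% of all genes).

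Among targets of YAP, the coactivator that responds to cell shape and contact, more genes fell at 3 h than at 22 h, with median responses of -0.34 and -0.07. Of 15 tested, 6 fell at 3 h and 1 fell at 22 h, where 2.7% and 1.41% of all genes did so. The median difference was 0.42, with 6 higher and 1 lower at an unadjusted p under 0.05, beside 8.5% and 7.09% of all genes. CCN1, a secreted matrix protein, gave 13.14, 13.14 and 13.31 in treated cells and 14.54, 14.49 and 14.43 in controls at 3 h, and 14.32, 13.82 and 14.70 against 14.71, 14.63 and 14.57 at 22 h. The treated arrays were below all controls at 3 h and overlapped them at 22 h. CCN1 fell at 3 h by 1.29 (adjusted p = 0.00096) and stood at -0.36 at 22 h (0.2), with a difference of 0.93 ± 0.23 (0.10). ARHGEF17, an exchange factor for small GTPases, fell at 3 h by 1.06 (0.002) and stood at -0.04 at 22 h, with a difference of 1.03 ± 0.21 (0.071). AJUBA, a junction adaptor that restrains LATS kinases, fell at both times, by 1.46 at 3 h (0.00058) and by 0.69 at 22 h (0.029). CCN2 fell at 3 h by 1.28 (0.0018) and stood at -0.62 at 22 h (0.053). The list median was 0.42 without replicate C of the 3 h controls and 0.36 without replicate B of the AS30 cells at 22 h. CCN1 and ARHGEF17 passed as higher without each of these arrays in turn, where 2.51% and 1.42% of all genes did so.

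**Figure D5:**
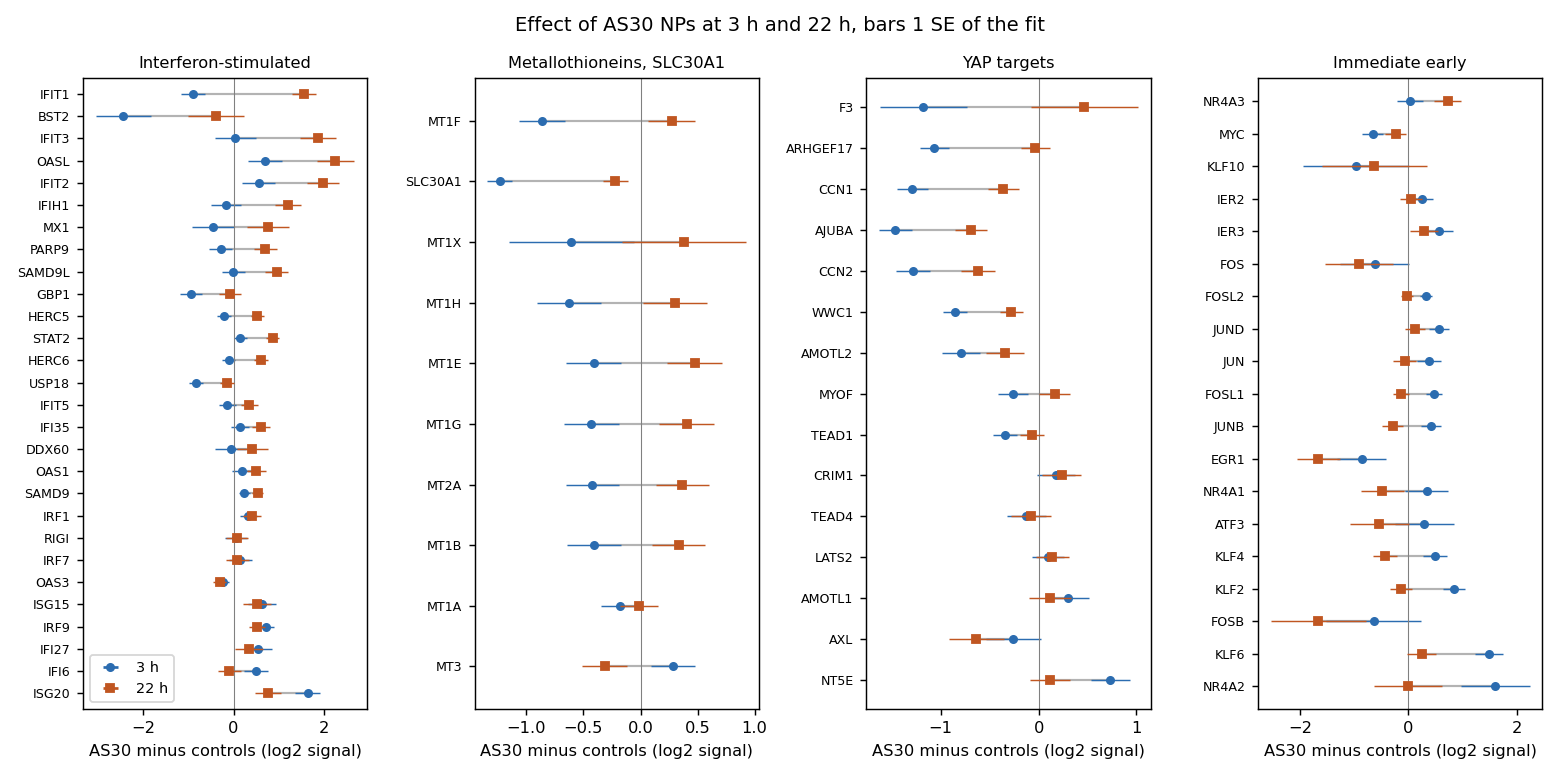
Response at 3 h (blue circles) and at 22 h (orange squares) of tested interferon-stimulated genes, metallothioneins with SLC30A1, YAP targets and immediate early genes, in log2 signal of AS30 cells minus controls with bars of 1 SE of the fit. Genes that were dim in a group are drawn at their measured signal. Most metallothioneins lie below 0 at 3 h and above it at 22 h, whereas KLF6 and KLF2 lie above 0 at 3 h and near it at 22 h.

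Immediate early genes and MAP kinase phosphatases had negative median differences, and 0 genes of either list passed for the difference on the probe that stood for the gene. The 19 immediate early genes had a median difference of -0.60, with 0 higher and 6 lower at an unadjusted p under 0.05, where 7.09% of all genes were lower. KLF6, a zinc finger transcription factor, gave 14.44, 14.78 and 14.38 in treated cells and 13.08, 12.80 and 13.26 in controls at 3 h, and 13.75, 12.70 and 13.85 against 13.24, 12.73 and 13.59 at 22 h. The groups were apart at 3 h and overlapped at 22 h. It rose at 3 h by 1.49 (adjusted p = 0.0073) and stood at 0.25 at 22 h (0.63), with a difference of -1.24 ± 0.37 (0.16) on this probe. A dimmer KLF6 probe was among the 22 that passed. Not every gene of the list peaked at 3 h, since FOS stood at -0.62 and -0.91 and MYC at -0.66 and -0.24. Over the list the median was -0.57 without replicate C of the 3 h controls and -0.19 without replicate B of the AS30 cells at 22 h, so that the size of the median rests largely on that array.

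Of 13 tested regulators that feed back on MAP kinases, 4 rose at 3 h (DUSP5, DUSP8, DUSP10 and DUSP16) and 0 at 22 h, where 2.77% and 4.43% of all genes rose. Without replicate B of the AS30 cells at 22 h, 4 rose at 3 h and 4 at 22 h, where 7.79% of all genes rose. The median difference was -0.43, with 3 lower at an unadjusted p under 0.05, beside 7.09% of all genes. DUSP8, a phosphatase of JNK and p38, gave 9.50, 9.23 and 9.20 in treated cells and 8.42, 7.99 and 7.95 in controls at 3 h, and 8.40, 7.43 and 8.32 against 8.18, 8.12 and 8.03 at 22 h. The groups were apart at 3 h and overlapped at 22 h. DUSP8 rose at 3 h by 1.19 (adjusted p = 0.0082) and stood at -0.06 at 22 h (0.91). Its difference was -1.24 ± 0.30 (0.10), and -0.93 without replicate B of the AS30 cells at 22 h (0.047). Over the list the median was -0.37 without replicate C of the 3 h controls and -0.19 without replicate B. The cyclic AMP response element TGACGTCA was found in 2 of 11 of these genes with a window (18.2%), DUSP1 and DUSP8, beside 3.7% of all tested genes with one and 1.85% of all windows. DUSP8 is shown because it holds 2 copies, which begin 118 and 74 bases before the start in chr11:1572272-1572521 on the reverse strand of GRCh38.p14.
DUSP8: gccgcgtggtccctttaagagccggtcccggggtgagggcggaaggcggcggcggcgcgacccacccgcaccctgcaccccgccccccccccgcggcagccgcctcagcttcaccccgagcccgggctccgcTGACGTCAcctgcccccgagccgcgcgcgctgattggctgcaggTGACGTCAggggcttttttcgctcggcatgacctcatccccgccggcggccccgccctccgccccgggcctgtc

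Among genes of cell division 0 passed for the difference over all arrays. Of 28 mitotic genes 0 fell at 3 h and 9 fell at 22 h, where 2.7% and 1.41% of all genes fell. At 3 h 8 fell without replicate C of the 3 h controls (11.8% of all genes) and 9 without replicate B of the AS30 cells at 22 h (3.35%). On all arrays, for the difference 0 were higher or lower even at an unadjusted p under 0.05. The median response was -0.47 at 3 h and -0.72 at 22 h, and the median difference -0.28. Of the 28 differences 26 lay below 0, beside 5843 of 13295 over all genes. KIF20A, a kinesin of cytokinesis, fell at 22 h by 1.08 (adjusted p = 0.021) and stood at -0.66 at 3 h (0.11), and PLK1, a mitotic kinase, fell at 22 h by 1.06 (0.025) and stood at -0.75 at 3 h (0.09). At 22 h the list median was -1.13, -0.12 and -0.90 on treated arrays A, B and C. Without array B, 27 of 28 fell at 22 h (3.91% of all genes), the median difference was -0.56, and PTTG1 and CDC25C passed with a lower response at 22 h. Of 30 DNA replication genes 3 fell at 3 h (CDC6, ORC1 and MCM10) and 0 at 22 h, where 2.7% and 1.41% of all genes fell. The median difference was 0.18, with 4 higher at an unadjusted p under 0.05, beside 8.5% of all genes. Without replicate C of the 3 h controls 16 of the 30 fell at 3 h, where 11.8% of all genes did.

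Of the listed genes of haemostasis and matrix breakdown 0 passed for the difference. THBD, thrombomodulin, gave 12.14, 11.73 and 11.49 in treated cells and 13.54, 12.54 and 12.64 in controls at 3 h, and 12.91, 12.05 and 12.88 against 12.40, 11.51 and 12.13 at 22 h. The treated arrays were below all controls at 3 h and overlapped them at 22 h. THBD fell at 3 h by 1.12 (adjusted p = 0.043) and stood at 0.60 at 22 h (0.25), with a difference of 1.72 ± 0.41 (0.099) that was 0.72 ± 0.82 with slide as a block. Its controls were 0.90 lower at 22 h than at 3 h. PLAT, tissue plasminogen activator, rose at 22 h by 1.11 (0.022), and PLAUR, the urokinase receptor, rose at both times, by 1.34 (0.007) and 1.02 (0.024). MMP10, stromelysin-2, gave 8.38, 9.40 and 8.67 in treated cells at 3 h and rose there by 3.38 (0.0027), with control signals of 5.12 and 5.75 on the 2 arrays that measured it, of which 1 was well above background. At 22 h it was measured on 2 arrays in each group, at 7.64 and 6.86 in treated cells and 5.71 and 7.11 in controls, which overlapped. The difference of MMP10 was -2.53 ± 0.66 (0.13). MMP1 was not measured on enough arrays to be tested. GAPDH had a difference of 0.01 ± 0.16.

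Other genes were named for their pattern, and none of them passed adjustment for the difference. BBC3, the p53 target PUMA that promotes apoptosis, gave 9.58, 9.50 and 9.69 in treated cells and 8.45, 8.23 and 8.08 in controls at 3 h, and 8.67, 8.05 and 8.42 against 8.15, 8.10 and 8.13 at 22 h. The groups were apart at 3 h and overlapped at 22 h. BBC3 rose at 3 h by 1.34 (adjusted p = 0.00056), with a difference of -1.08 ± 0.21 (0.059), while its other probes gave -0.99 and -0.25. RGS14, a regulator of G protein signalling, rose at 3 h by 1.14 (0.0012) and stood at 0.10 at 22 h, but here the treated cells moved by 0.15 between the times and the controls by 1.18. Among faded falls, ARHGEF26, of the same family of exchange factors as ARHGEF17, fell at 3 h by 1.33 (0.00056) and UBTF, a factor of ribosomal RNA transcription, fell by 1.37 (0.00088), and they stood at -0.35 and -0.30 at 22 h. Among late falls, ACTL8, an actin-like protein, fell at 22 h by 1.27 (0.011), MAP2K7, the kinase that activates JNK, by 1.02 (0.014) and GFRA4, a receptor for persephin, by 1.56 (0.024), with 3 h responses of 0.17, 0.11 and 0.37. In ACTL8 the controls moved by 0.99 and the treated cells by -0.44.

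With slide as a fixed block the median differences of 9 lists kept their signs, at 1.19 for cholesterol synthesis, 0.52 for fatty acid synthesis, 0.36 for the lysosome, 0.69 for interferon-stimulated genes, 1.14 for metallothioneins, 0.22 for YAP targets, -1.24 for immediate early genes, -0.55 for MAP kinase feedback and -0.34 for mitosis. The remaining lists of functions had median differences between -0.43 and 0.18 and 0 genes that passed for the difference, apart from ALDOC in the glycolysis list. The 8 tested chemokines had a median of -0.43, with 1 lower and 0 higher at an unadjusted p under 0.05, beside 7.09% and 8.5% of all genes. Their median ranged from -0.79 to 0.00 when single arrays were left out and was 0.35, of the other sign, with slide as a fixed block. Heat shock genes (19 tested) had a median of 0.13, NRF2 targets (22) of 0.11, p53 targets (21) of -0.01, the integrated stress and unfolded protein list (23) of -0.19, genes of endocytosis (28) of -0.01 and cell junctions (22) of 0.01. In each of these 6 lists at most 4 genes were higher or lower at an unadjusted p under 0.05. With slide as a fixed block some of the remaining medians changed sign, among them heat shock genes, at -0.16, and haemostasis, at -0.27. The median was 0.14 for haemostasis (15), 0.17 for matrix proteases and their inhibitors (8), 0.03 for cytokines (8), 0.05 for NF-κB regulators (15), 0.08 for glycolysis and hypoxia (29), -0.01 for EGF ligands and receptors (9), -0.13 for TGF-β feedback (17), -0.22 for the circadian clock (14), -0.20 for alveolar and surfactant genes (14), 0.17 for vesicle transport (28) and 0.00 for BCL2 and caspase genes (28).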

How the data were processed

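RNA of A549 cells was hybridised to one-colour Agilent arrays, with 3 biological replicates per group as the labels give them. The deposited scanner files hold linear spot intensities from Agilent Feature Extraction 10.5.1.1, whose processed signal is background-corrected. The authors also deposited an expression matrix of linear intensities that they had quantile-normalized, with gaps at spots that failed the positive-and-significant flag, which served as an alternative, and 0 per-sample columns were not used. Probe positions are those of the files on hg18, and exons were not assigned.

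The log2 of the processed signal was quantile-normalized over the 18 arrays, spots failing that flag were set to missing, outlier spots were dropped and replicate spots averaged. Probes missing on over 33% of arrays were removed, leaving 28665 of 41000, and those measured on at least 2 arrays of each of the 4 groups were tested. Limma 3.58.1 (with R 4.3.3, statmod 1.5.0 and version 1.17.8 of data.table) was fitted to the 18 arrays as 6 groups, without a block, with a two-sided moderated test and Benjamini-Hochberg adjustment over 26555 probes. The step was tested on simulated data. A gene of a list was represented by its probe with the highest mean signal. The genes, lists and tests were chosen with earlier results of these data known, and list counts are descriptions without a test.

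Named genes were, in each direction, up to 12 called probes that were measured on all 12 arrays and well above background on at least 2 of 3 arrays of every group, filled to 8 by smallest p, list members with an unadjusted p under 0.05 or the largest move, MMP1, MMP10, MMP9, TNF, IL1B, ATM and GAPDH, then IFIT1 and THBD, and the 5 with the smallest p in each pattern. Replicate letters were not shown to pair the samples. Promoter windows and symbols came from RefSeq (GRCh38.p14) and were searched with Python 3.11.15, and figures were drawn with matplotlib 3.10.9. Some members of the lists are counted but not reported singly here.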

Additional observations from a re-analysis of the deposited data

Results flagged for a closer look

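The results singled out here are those in which the response to AS30 NPs at 22 h differed from that at 3 h by the test of the difference itself. There were 22 such probes in the fit that takes the spread from all 18 arrays, and 0 of them passed when the 12 AS30 arrays were fitted alone. The 11 genes among them that were well above background in every group had differences, in log2 units and all higher at 22 h, of 1.24 for FZD2, 1.01 for SLC30A1, 1.39 for LRRC20, 1.11 for PNMA8A, 2.46 for IFIT1, 1.41 for AQP11, 1.69 for SLC30A3, 1.27 for EBP, 1.08 for GPR160, 1.1 for RARRES1 and 0.80 for KDELR3. Each of the 11 missed the threshold in 10 to 19 of the alternatives run. Over these the difference was as low as 0.43 for RARRES1, 0.44 for GPR160, 0.45 for AQP11 and 1.15 for IFIT1, and it ran from 1.06 to 1.36 for FZD2. The groups hold 3 arrays each, too few for a test of single outlying samples.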

How the results depend on the processing

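The count of 22 probes for the difference was the value most open to processing, although each of the 22 kept its direction in all 29 alternatives in which it was measured. The count became 4 with normexp background correction, 12 with no filter on dim spots, 46 over probes well above background on all 12 arrays and, as alternatives added after seeing the data, 72 where 1 array per group sufficed and 77 with 1 probe a gene. Fewer probes or fewer arrays entered some of these fits, and the cause of the other changes was not tested.

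With the 12 AS30 arrays fitted alone the counts were 0 for the difference (3153 at an unadjusted p under 0.05), 230 at 3 h and 149 at 22 h. With ratios over the mean of 3 controls, which leaves out the spread of the controls, they were 5561, 9440 and 8359. With slide as a fixed block they were 3, 14 and 2, and as a random block 0 (3400 at an unadjusted p under 0.05), 368 and 225.

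The replicate letters were not shown to pair the samples, since same-letter arrays of treated cells and controls correlated at -0.099 to 0.478 in their deviations. With the letter as a replicate block on same-letter ratios the counts were 7 for the difference, 712 at 3 h and 1000 at 22 h, and with a block across recovery times 0 (3696 at an unadjusted p under 0.05), 199 and 231.

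Faded patterns numbered 423 probes and late ones 341. They became 40 and 65 with normexp, 156 and 149 over probes well above background, 785 and 571 over the mean of 3 controls and 149 and 174 with 1 probe a gene. Late patterns were 515 with no filter on dim spots and 119 with slide as a fixed block. With that block the median at 22 h after a rise at 3 h reversed to -0.19.

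Leaving out 1 array at a time gave 0 to 1564 probes for the difference, 264 to 5501 at 3 h and 278 to 2643 at 22 h, 225 to 1184 faded and 254 to 644 late patterns, and medians of 0.09 to 0.44 after a rise and -0.27 to -0.12 after a fall. The upper ends came without replicate C of the 3 h controls (1564, 5501 and 1184 faded) or replicate B of the AS30 cells at 22 h (2643 and 644 late). The signs of the list medians for cholesterol, fatty acid, lysosome, interferon, metallothionein, YAP, immediate early, MAP kinase and mitosis genes held in every alternative run.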
